A study of Rattus norvegicus with 4 samples.

Results

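Cytosolic ribosomal protein genes were followed in the inner medulla of rat kidney, the innermost zone where urine is concentrated, in females and males. Members were all symbols beginning with Rpl or Rps and a digit, plus Rpsa, Rplp0, Rplp1 and Rplp2, without the Rps6k kinases, in any letter case. The rule found 101 symbols among 19594 in the deposited table, and for a symbol with several rows the row of highest summed value was taken. Of these, 75 are canonical proteins of the cytosolic ribosome, 44 of the large and 31 of the small subunit. The other 26 are paralogs, numbered copies, pseudogenes and Rps19bp1, which encodes a protein that binds Rps19 and is no ribosomal protein itself.

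The female group was 2 pools of 4 Sprague Dawley rats and the male group was 2 further pools of 4. Rats of both groups were bought at 13 to 15 weeks of age and placed at 14 to 16 weeks on chow with 0.49% NaCl for 2 weeks, with no other treatment. Stranded total RNA libraries held 34552171 to 41945343 read pairs. The deposited table gives 1 value per locus and sex, taken as FPKM from its layout. FPKM scales fragments by the length of the transcript and the size of the library, which allows a rough comparison of levels between genes. How well this scaling holds for the shortest messengers was not tested, which limits the order of levels and the shares of summed FPKM. Both pools of a sex were joined by the authors, and no spread between pools can be given. The error measure is therefore the p-value of the authors' deposited table, or its q-value, which is adjusted over 20307 tested loci. A gene is said to be called where q was under 0.05.

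The ribosome is built from a small subunit, which reads messenger RNA, and a large subunit, which joins amino acids. Most ribosomal proteins are needed in equal number per ribosome, and cells tune their messengers together. These messengers typically begin with a 5′ terminal oligopyrimidine (TOP) tract, a C at the first base followed by an unbroken run of C and T. Through the TOP tract, mTOR and the RNA-binding protein Larp1 control how strongly they are translated. This control acts on translation, which RNA levels do not show.

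Gene starts were read from RefSeq promoter windows of build GRCr8, which held 61 entries for 60 of the 75 canonical members. Some are printed since they show a feature that the choice of members did not use. A TOP tract was searched on the gene's strand alone, as a C followed by at least 4 pyrimidines. It stood exactly at the annotated start in 23 of 61 entries (37.7%) against 2.63% of all 33469 promoter entries. Its C stood within 5 bases of the start in 39 of 61 (63.9%) against 17.0% of all entries. In the 68 entries of mitochondrial ribosomal proteins the share was 26.5%. The lines give 15 bases before the start and the first 15 bases from it, read 5′ to 3′ on the gene's strand, with the tract nearest to the start in capitals. The motifs and the tolerance of 5 bases were picked after start sequences of members had been read. The lines show, of 21 genes, the 18 that have an entry: those of the 6 highest levels, the 6 largest canonical ratios in each direction, and Rps4x, Rpl10, Rps6, Rplp0, Rpl13a and Rps18. Rps29, Rpl23a and Rps25 are named only.
Rpl41, chr7:1563483-1563512, minus strand: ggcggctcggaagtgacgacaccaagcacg
Rps27, chr2:177964592-177964621, minus strand: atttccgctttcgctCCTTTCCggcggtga
Rps28, chr7:15311319-15311348, minus strand: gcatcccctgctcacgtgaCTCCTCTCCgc
Rpl35, chr3:43165907-43165936, minus strand: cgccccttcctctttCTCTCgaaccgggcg
Rpl38, chr10:100200420-100200449, plus strand: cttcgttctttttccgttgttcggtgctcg
Rpl21, chr12:13386139-13386168, minus strand: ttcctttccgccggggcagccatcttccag
Rpl39, chrX:121195882-121195911, minus strand: tcttctaatcgcgttCTTCCggcctgtcct
Rps2, chr10:14251833-14251862, plus strand: cctcttctttttcttcgggaaaacacgtga
Rpl4, chr8:73566462-73566491, plus strand: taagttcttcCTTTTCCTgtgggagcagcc
Rplp2, chr1:205975906-205975935, plus strand: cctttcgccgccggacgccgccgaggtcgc
Rps9, chr1:74430423-74430452, minus strand: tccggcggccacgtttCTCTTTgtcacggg
Rpl27a, chr1:172974558-172974587, plus strand: cgagacttggtgggCTCCTCCCTCTTTCTT
Rps4x, chrX:71342907-71342936, minus strand: tccagcgcgcgcagCCTCCgaccctaattt
Rpl10, chrX:157205835-157205864, plus strand: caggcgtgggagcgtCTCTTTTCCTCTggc
Rps6, chr5:106420526-106420555, minus strand: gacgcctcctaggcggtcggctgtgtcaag
Rplp0, chr12:46718376-46718405, minus strand: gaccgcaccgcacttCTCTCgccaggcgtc
Rpl13a, chr1:104748899-104748928, minus strand: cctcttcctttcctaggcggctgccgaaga
Rps18, chr20:4933730-4933759, plus strand: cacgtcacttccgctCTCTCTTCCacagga
The C of a tract stood within 5 bases of the start in 11 of these 18. The other 7 (Rpl41, Rpl38, Rpl21, Rps2, Rplp2, Rps6 and Rpl13a) hold no C there that 4 pyrimidines follow. A run of C and T that lies mostly or wholly upstream was not counted. The lines of Rpl38, Rpl21, Rps2, Rplp2, Rps6 and Rpl13a hold such runs. So it is not shown that these messengers lack a TOP tract. Over the whole windows of 300 bases and on both strands, CCGGAAG, the core of sites for ETS-family factors, was found in 32.8% of the canonical entries, 30.9% of the mitochondrial ribosomal protein entries and 8.75% of all entries. AAGATGGC, a core of YY1 sites, stood in 8.20%, 23.5% and 3.17% of the same sets. GGGCGG, bound by Sp1, stood in 57.4%, 44.1% and 33.1%, and TATAAA in 9.84%, 13.2% and 14.2%. CCGGAAG and AAGATGGC share the letters AAG and can overlap, and a match is not shown to be a bound site.

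The median level of the canonical members was 1255 FPKM in females and 1244 FPKM in males, where the medians over all tested loci were 4.95 and 4.79. Since the row of highest value was taken where a symbol had several, these levels were in part chosen for being high. The 51 canonical members with a single row, where nothing was chosen, had medians of 1171 and 1176 FPKM. All members together held 15.6% of the summed FPKM of all loci in females and 15.3% in males. The canonical large-subunit genes held 8.87% and 8.74%, and the canonical small-subunit genes 6.55% and 6.37%. Of the 75 canonical members, 13 had a mean of the sexes of at least 2000 FPKM, a level reached by 19 other tested loci. A further 37 lay between 1000 and 2000, 17 between 500 and 1000, and 6 between 100 and 500. The remaining 2, Rps4x and Rps19, were under 100.

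The highest level was that of Rpl41, the shortest protein of the large subunit, at 9904 FPKM in females against 11085 in males. Rps29, a small zinc-binding protein of the small subunit, followed at 5230 FPKM in females against 5727 in males. Rps27, also zinc-binding, was at 4385 and 4396 FPKM. The order goes on with Rps28, which sits where messenger RNA leaves the small subunit, at 2893 FPKM in females against 3292 in males. Rpl35, at the exit of the peptide tunnel, was at 2913 and 2777 FPKM, and Rpl38, known in mice for its part in the translation of Hox messengers, at 2717 and 2859. Rpl41, Rps29 and Rps27 came in this order in both sexes, while Rps28, Rpl35 and Rpl38 were ordered differently in females and males. With no spread between pools, no neighbours in the order could be tested.

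**Figure D1:**
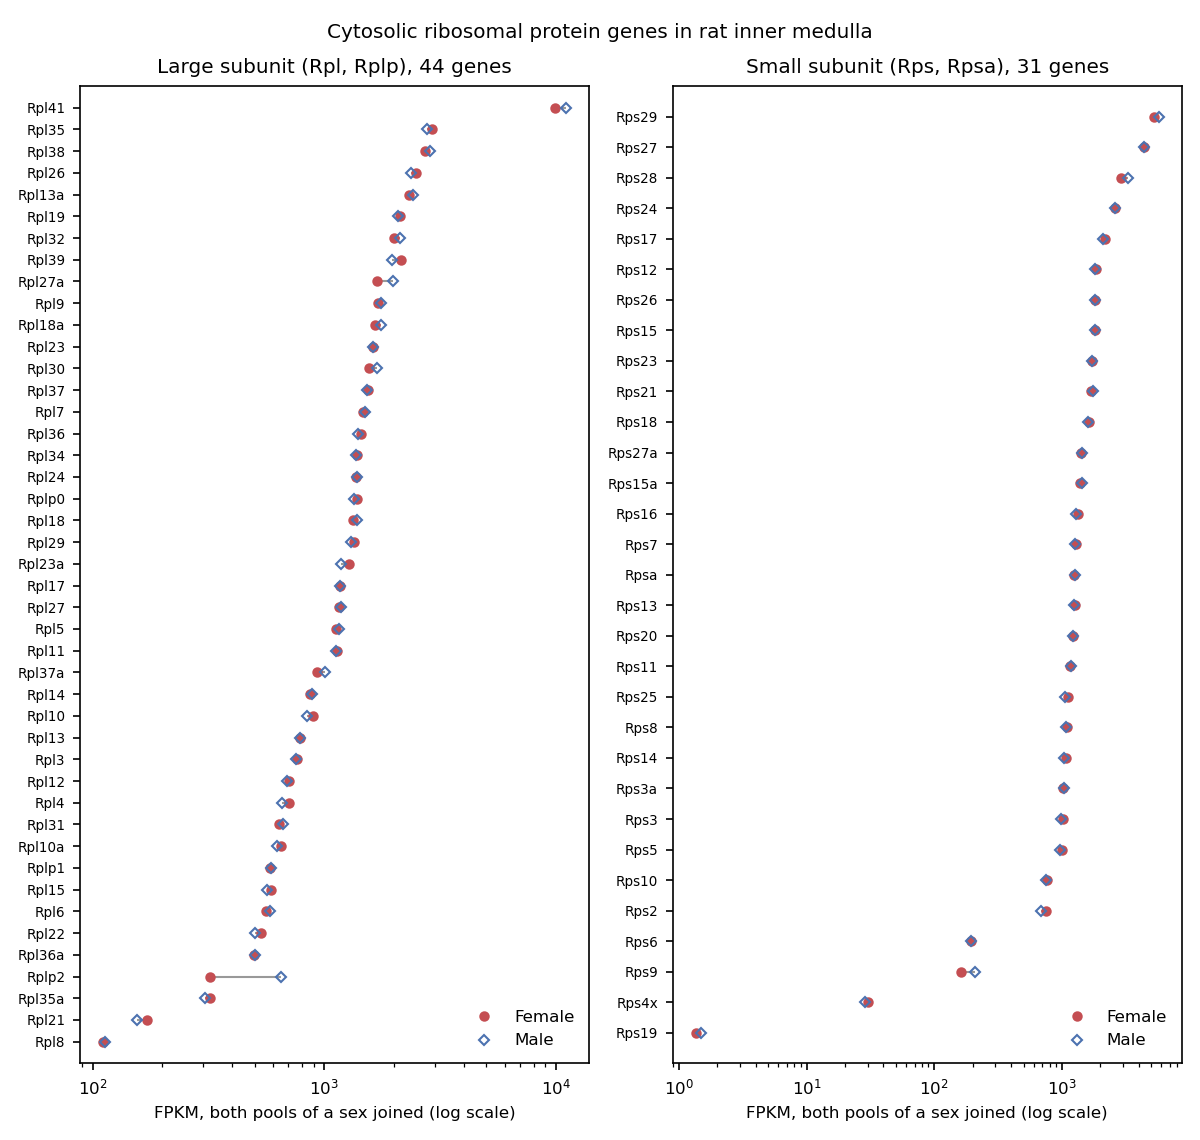
FPKM of each canonical ribosomal protein gene in females (filled circles) and males (open diamonds), on a log axis, with the 44 large-subunit genes on the left and the 31 small-subunit genes on the right. Symbols of the sexes nearly coincide for most genes, with the widest gap at Rplp2 (321 FPKM in females against 651 in males).

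Between the sexes, the canonical ribosomal protein genes were close to even. None of the 91 tested members was called higher in females, against 1.63% of all tested loci, and none higher in males, against 0.719%; in both directions together 2.34% of tested loci were called. At an unadjusted p under 0.05 in the authors' deposited table, 1 of 91 members (1.10%) passed, against 9.77% of tested loci. That member was Rpl10l, described below, and no canonical member passed. Among the 93 members above 0 in both sexes, 50 had the larger value in females and 43 in males, with a median log2 ratio of female to male of 0.0056. Over all tested loci above 0 in both sexes, 49.1% were larger in females and the median was -0.0048.

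The spread of the ratios was set beside that of other loci above the same floor of level. Of the 73 canonical members of mean FPKM of at least 100, 61 (83.6%) differed by less than 0.1 on the log2 scale, which is 7.18%, against 48.7% of 984 other tested loci of that level above 0 in both sexes. Their median absolute log2 ratio was 0.04, against 0.10 in those other loci. The middle 50% of these members ran from -0.04 to 0.05 and that of the other loci from -0.15 to 0.03. The median log2 ratio of the other loci at this level was -0.06, with 34.0% larger in females, against 54.8% of the canonical members. These other loci were less abundant, with medians of 176 and 184 FPKM against 1277 and 1257 in the canonical members. Within bands of level, the share that differed by less than 0.1 was 18 of 23 canonical members (78.3%) and 445 of 922 other loci (48.3%) between 100 and 1000 FPKM. It was 34 of 37 (91.9%) and 26 of 43 (60.5%) between 1000 and 2000 FPKM, and 9 of 13 (69.2%) and 8 of 19 (42.1%) from 2000 FPKM. No test was made of these shares.

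Canonical large-subunit genes split evenly, 22 larger in females and 22 in males, with a median log2 ratio of -0.0019. Of the canonical small-subunit genes, 19 were larger in females and 12 in males, with a median of 0.011. By level, 6 of the 13 genes of at least 2000 FPKM were larger in females, 21 of 37 between 1000 and 2000, and 13 of 23 between 100 and 1000.

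A missing call does not show that the sexes were equal. Among the other tested loci averaging 100 FPKM or more, the smallest ratio called in the authors' deposited table was 1.48-fold. If a deposited p is read as the two-sided p of a normal statistic, the median standard error of a canonical member's log2 ratio is 0.17. On that reading a 95% interval reaches 0.33 on the log2 scale, or 1.26-fold, to either side, so that differences of up to about that size remain possible for a typical member.

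**Figure D2:**
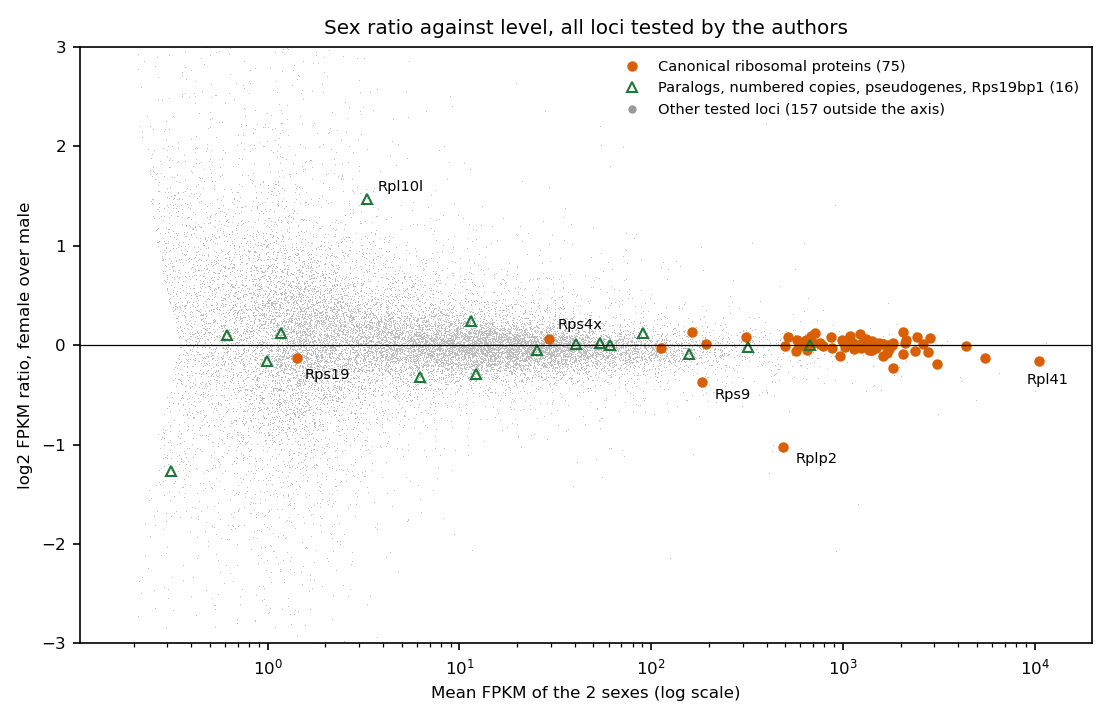
Log2 ratio of female to male FPKM against the mean FPKM of the sexes (log axis) for all tested loci above 0 in both sexes (grey), the 75 canonical members (filled circles) and 16 tested other members (triangles); 157 loci lie outside the axis. The canonical members form a narrow band at 0 on the right, with Rplp2 at -1.02 and Rps9 at -0.37 below it.

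Towards males, the canonical gene of largest ratio was Rplp2, an acidic protein of the ribosomal stalk that recruits translation factors. It measured 321 FPKM in females against 651 in males, 2.03-fold apart, but with p = 0.351 and q = 0.976 in the authors' deposited table. Its partners in the stalk were even, with Rplp0 at 1380 FPKM in females against 1349 in males and Rplp1 at 586 and 590. Rps9, which lines the path of messenger RNA into the small subunit, measured 161 FPKM in females against 208 in males. Its p of 0.0972 in the authors' deposited table was the lowest of any canonical member, with q = 0.683. Rpl27a, of the large subunit, measured 1684 FPKM in females against 1978 in males (the authors' deposited table gives q = 0.999). For these 3 genes the standard error read from p was larger than for the typical member, at 1.09, 0.22 and 0.30 on the log2 scale.

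These 3 genes share a feature of the table. In rn5, the build named in the submitters' processing notes, the locus of Rplp2 is listed as chr1:220908602-221371076, an interval of 462475 bases that is listed for 28 other loci as well. The locus of Rpl27a is chr1:181121467-181572938, shared with 10 others, and that of Rps9 is chr1:63010582-63082298, shared with 4. Among the 73 canonical members of at least 100 FPKM, the 64 with an interval of their own had a median width of 2946 bases and absolute log2 ratios of at most 0.19. The 9 in a shared interval had a median width of 60061 bases, and 7 of them were larger in males. The other 6 of these, Rpl35, Rpl13a, Rpl18, Rps25, Rpl31 and Rpl8, had log2 ratios from -0.06 to 0.09. Of the other tested loci in the Rplp2 interval, 15 of 19 were lower in females, with a median log2 ratio of -0.14, and in the Rps9 interval 4 of 4, with a median of -0.21. In the Rpl27a interval 3 of 7 were lower in females. For comparison, 49.1% of all tested loci above 0 in both sexes were larger in females, and 35.5% of those averaging 100 FPKM or more. The part of these intervals in the ratios was not tested.

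**Figure D3:**
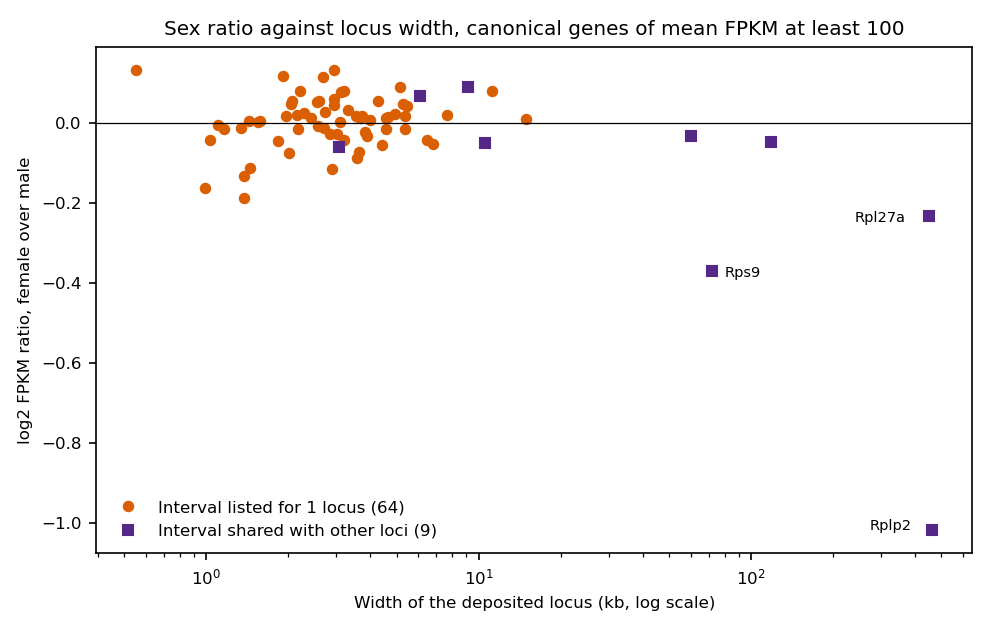
Log2 ratio of female to male FPKM against the width of the deposited locus (kb, log axis) for 73 canonical members of mean FPKM of at least 100. The 64 genes with an interval of their own (circles) lie within 0.19 of 0, while Rplp2, Rps9 and Rpl27a are among the 9 genes whose interval is shared with other loci (squares).

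Apart from those, Rpl41, Rps28 and Rps29 had the largest ratios towards males, 1.12-fold, 1.14-fold and 1.10-fold. Their q-values in the authors' deposited table were 0.994, 0.923 and 0.999. They are also among the members of highest level, so they weigh in the sum over all members, which came to 110377 FPKM in females against 112750 in males. Rpl41, Rps29, Rps28, Rplp2 and Rpl27a, picked for the largest gaps towards males, together were 2702 FPKM higher in males. The sum over the remaining members came to 90346 FPKM in females against 90017 in males. The direction of this remainder follows from the choice, since the gap of the picked genes exceeds the whole difference of 2373 FPKM.

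Towards females, ratios of canonical genes reached 0.13 on the log2 scale. Rpl21, of the large subunit, measured 171 FPKM in females against 156 in males, in a row on X that is taken up below. Rpl39, a short protein that lines the peptide exit tunnel, was at 2149 and 1960 FPKM. Rps2, at the entry of the messenger RNA path, measured 745 FPKM in females against 686 in males, and Rpl23a, at the tunnel exit, was at 1284 and 1185. Rpl4, which narrows the tunnel, was at 703 and 660 FPKM, and Rps25, used by some viral messengers for entry into the ribosome, at 1122 and 1054. The authors' deposited table gives all 6 a q of 0.999. None of these gaps reached the standard error of 0.16 to 0.17 read from their p-values.

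Several members serve as reference genes in expression studies. Rpl13a measured 2328 FPKM in females against 2426 in males, with a log2 ratio of -0.06, and Rps18 was at 1618 and 1602, with 0.01. Rplp0 had a log2 ratio of 0.03 and Rpl19, at 2120 and 2089 FPKM, of 0.02. Rpl32 measured 2004 FPKM in females against 2126 in males, with -0.09. Rps6, whose phosphorylation by S6 kinase is a readout of mTOR activity, was at 194 and 192 FPKM, with 0.01. None of these was called, and their ratios lay within the standard error read from p.

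Rpl10, Rpl36a, Rpl39 and Rps4x are X-linked in mammals, and none of their rows was called. Rpl10, needed for the joining of subunits, measured 894 FPKM in females against 846 in males, in a row that the deposited table places on chromosome 1. Rpl36a, listed on X, was at 498 and 503 FPKM, and Rpl39, also on X, is given above. Rps4x has its row on chromosome 4, over 793 bases, at 30.1 FPKM in females against 28.9 in males. RefSeq places Rps4x on X, as the start window shows, and whether the row holds reads of the X-linked gene was not tested. Conversely the row of Rpl21 is on X, over 553 bases, while its RefSeq start window is on chromosome 12. Whether this row holds reads of the gene on chromosome 12 was not tested either. Rps4y2, a related copy on chromosome 4, was at 25.0 and 25.8 FPKM.

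Paralogs with a separate gene ranged from a level near that of their partner to almost none. Rpl36al measured 673 FPKM in females against 672 in males, 135% and 134% of Rpl36a. Rpl22l1, which is known in mice to rise when Rpl22 is lost, was at 153 and 163 FPKM, 28.8% and 32.3% of Rpl22, at 533 and 504. Rps27l, a p53 target in human cells, was at 316 and 320 FPKM, 7.22% and 7.28% of Rps27. Rpl7l1 was at 40.5 and 40.1 FPKM, 2.75% and 2.67% of Rpl7. Rpl39l, known from testis, was at 0.932 and 1.04 FPKM, and Rpl3l, known from striated muscle, at 0.0154 and 0.0585 FPKM and not tested. Values of such close copies are uncertain, since how reads were divided between them is not given in the labels.

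Rpl10l, a retrocopy of Rpl10 that takes over in male germ cells of mice, had the largest ratio among tested members. Its locus (chr6:97714710-97715355 in rn5) measured 4.83 FPKM in females against 1.74 in males, 2.77-fold apart, with p = 0.00505 and q = 0.130 in the authors' deposited table. It was not called. Its level was 0.540% of that of Rpl10 in females and 0.206% in males. Whether reads of Rpl10 were placed there was not tested.

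Of the 18 other members that are no such paralog and no canonical gene, Rps19bp1 was the most abundant, at 93.9 FPKM in females against 86.4 in males. The pseudogene Rps10l1 followed at 61.0 and 61.1 FPKM and Rps27l3 at 54.3 and 53.3. Rps15al4 (12.4 and 10.5 FPKM) and Rpl36-ps3 (11.0 and 13.5 FPKM) came next. Levels of the pseudogenes Rpl32-ps1 (5.53 and 6.89 FPKM) and Rps2-ps6 (1.23 and 1.13 FPKM) were lower. Over all 26 non-canonical members, 7 were listed at 0 in both sexes and 10 were not tested by the authors. The 7 were Rpl34l1, Rpl28-ps4, Rpl31l3, Rpl37a-ps1, Rps15al1, Rps18-ps3 and Rps19l1. Those just above 0 were Rps27l2 (0.633 and 0.589 FPKM), Rps15al2 (0.184 and 0.443 FPKM), Rpl13a-ps1 (0.0870 and 0.0517 FPKM) and Rps17l (listed at 0 in females and 0.235 FPKM in males).

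Copies of these genes also show as further rows under the same symbol. The 101 members had 147 rows, and 25 symbols had more than 1, up to 7 for Rpl38 and Rpl39. Of the 46 further rows, 21 were listed at 0 in both sexes, 42 stayed under 20 FPKM, and none of the 22 tested was called. The 4 of highest level belonged to Rps27a (205 FPKM in females against 220 in males), Rpl35a (152 and 156), Rpl6 (127 and 133) and Rpl12 (79.3 and 78.2). Their taken rows were at 1396 and 1441 FPKM for Rps27a, 322 and 304 for Rpl35a, 562 and 583 for Rpl6, and 702 and 689 for Rpl12. The log2 ratios of these 4 further rows ran from -0.10 to 0.02.

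Some canonical genes stood apart in level. Rps19, mutated in human Diamond-Blackfan anaemia, measured 1.35 FPKM in females against 1.48 in males in a row on chromosome 9, and its row on chromosome 1 was at 0.586 and 0.736. Rpl8, near the catalytic centre, was listed at 0 in both sexes in both of its rows on chromosome 7, and its value of 111 and 114 FPKM comes from a row on chromosome 3. Rpl7a and Rpl28 had no row of their own symbol and are not analysed here. Whether reads of these genes, and of Rps4x and Rpl21, lie at loci under other names was not tested.

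Ribosomal proteins outside the naming rule gave like values. Fau, a fusion of a ubiquitin-like protein with a small-subunit protein, measured 2199 FPKM in females against 2286 in males, and Gnb2l1, the small-subunit scaffold also called Rack1, was at 667 and 636. The authors' deposited table gives both a q of 0.999. The 76 mitochondrial ribosomal protein genes, which build the separate ribosome of mitochondria, had a median of 49.9 FPKM in females against 46.6 in males. None of them was called, 42 were larger in females, and their median log2 ratio was 0.01.

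Other parts of the translation machinery were described by lists chosen with earlier results of these data known. Of 8 tested genes in the list of elongation factors, none was called and 5 were larger in females, with a median log2 ratio of 0.02. The list also counts Eef2k, a kinase of Eef2, and Tpt1, which are not elongation factors themselves. Eef1a1, which brings aminoacyl-tRNA to the ribosome, measured 3052 FPKM in females against 2928 in males. Eef2, which moves the ribosome along, was at 456 and 444 FPKM. Of 32 tested initiation factors, 1 was called, where 2.34% of all tested loci were called. The called gene was Eif2s3, a subunit of the factor that brings the initiator tRNA. It measured 46.8 FPKM in females against 28.6 in males, a ratio of 1.64, and the authors' deposited table gives q = 0.00703. The gene is X-linked and has a partner on the Y chromosome in rats. Of these 32 factors 16 were larger in females, and the median log2 ratio was -0.0060.

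None of 44 tested ribosome biogenesis genes was called, and 30 were larger in females, with a median log2 ratio of 0.05. Among them, Npm1 (nucleophosmin) measured 227 FPKM in females against 218 in males, and Fbl (fibrillarin), which methylates ribosomal RNA, was at 62.7 and 61.7. Of 22 tested genes of mTOR and TOP messenger control, 1 was called, where 2.34% of all tested loci were called. Of these 22, 16 were larger in females, with a median log2 ratio of 0.08. The called gene was Mycn, a transcription factor that drives ribosome biogenesis. It measured 1.20 FPKM in females against 0.259 in males, a ratio of 4.63, and the authors' deposited table gives q = 0.0339. Its male value was under 1 FPKM, where depth limits the ratio. Larp1, the TOP-binding protein, was at 24.3 and 26.4 FPKM, Mtor at 8.77 and 8.11, and Rps6kb1, an S6 kinase, at 7.44 and 7.24, none of them called. Of 31 proteasome genes none was called and 8 were larger in females, with a median log2 ratio of -0.03. Over all tested loci above 0 in both sexes, 49.1% were larger in females, and these tallies of direction were not tested. The list of small nucleolar RNA host genes had 1 matched gene, Snhg11, at 92.8 FPKM in females against 116 in males, not called.

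**Figure D4:**
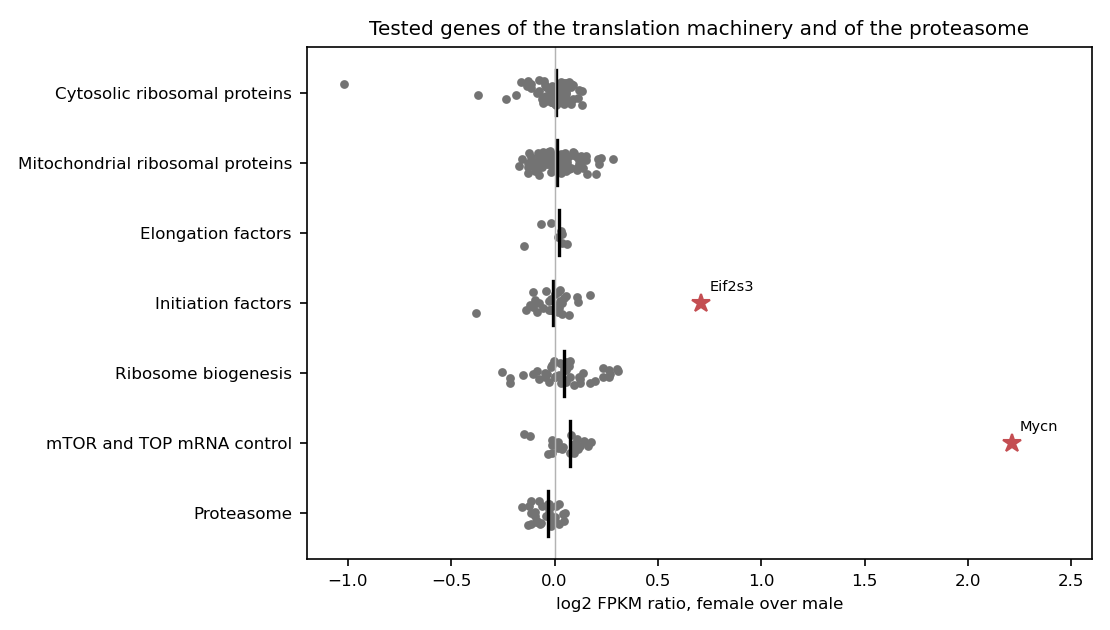
Log2 ratio of female to male FPKM for each tested gene (dots) of the canonical cytosolic ribosomal proteins and of 6 lists of related genes, with the median of each list as a vertical bar and called genes as stars. Medians lie between -0.03 and 0.08, and the only stars are Eif2s3 and Mycn, both higher in females.

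Marker genes of the tissue and of other cell types were read beside the ribosomal protein genes. The collecting duct markers Aqp2, Aqp3, Aqp4, Slc14a2 and Fxyd4 were present at 229 to 8463 FPKM in females and 297 to 11693 in males, all 5 lower in females and none called. Their summed level came to 14450 FPKM in females against 19955 in males. Of 4 tested proximal tubule markers, 3 were called higher in females, against 1.63% of all tested loci, and Lrp2 had no matched row. The list summed to 950 and 161 FPKM, of which Kap alone made up 910 and 131. The other 3, Cubn, Slc34a1 and Miox, summed to 39.7 and 30.3 FPKM, with Miox, not called, at 21.1 and 20.3. Leukocyte markers summed to 317 FPKM in females against 234 in males, with Cd3e of T cells called among 4 tested; Lyz2 made up 304 and 226 of that sum. Endothelial markers summed to 315 and 181 FPKM with Plvap, at 240 and 122, called among 3, and red blood cell markers to 1023 and 767 with none of 3 called. The markers of the thick limb, of the thin limb and papilla, and of proliferation held no called gene, at sums of 1061 and 1103, 983 and 976, and 0.911 and 1.35 FPKM. No marker with a row was at 0. In such bulk RNA, fewer cells of a type and less RNA per cell cannot be told apart, and the part of these differences in the ribosomal protein values was not tested.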

How the data were processed

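Total RNA of inner medulla was sequenced in 4 libraries, 2 pools per sex, grouped by the sample titles. Build rn5 and the tools Cufflinks 2.2.1, TopHat2 2.1.1, StringTie, cutadapt and FastQC come from the submitters' processing notes, which give no roles. Per the file headers, the authors joined pools 1 and 2 as female and 3 and 4 as male; the deposited values were taken as FPKM because the layout is Cuffdiff's. The p-value and q-value per locus are the authors' deposited ones, and settings of the test are not given in the sources. Second-read counts per library were deposited by the authors. FPKM values carry no counting interval here.

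With 1 value per sex no test of values could be run; log2 ratios used no pseudocount. The members and lists were chosen with earlier results of these data known. The named genes were the called members, the 6 of highest and the 4 of lowest level above 0, the 6 canonical genes of largest ratio each way among those averaging 1 FPKM or more, paralogs with partners, called genes of the related lists, and Rps4x, Rpl10, Rps6, Rplp0, Rpl13a and Rps18. Rpl19, Rpl32, Rpl36a, Rps19, Rpl8 and the pseudogenes were added after their values were seen. RefSeq tables of GRCr8 gave biotypes for 97 of 101 symbols and the start windows. The Benjamini-Hochberg step was tested on simulated p-values, and the matching of symbols on a few names and rows written by hand (Python 3.11.15, pandas 2.3.3). The standard error read from p, the smallest called ratio, the split by interval, the bands of level, the members with a single row, the limit of 0.1 and the 5 genes of largest gap were added after values were seen. How far the deposited p-values take in the spread between pools is not stated in those sources. The authors' table of loci 1.5-fold apart was not used. A further gene of the related lists is not reported here.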

Additional observations from a re-analysis of the deposited data

How the results depend on the processing

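The count of 0 called members in each direction did not change under the alternatives run, and could not rise in any. Adjusting q again over tested loci averaging 5 FPKM or more leaves out Rpl10l, which averaged 3.28 FPKM. The lowest p of a member then left in the authors' deposited table is 0.0972, of Rps9. An adjusted value is never below its p. Using q under 0.01 or canonical members alone can only narrow the count. Counts of members above and below 0 stayed within 1.5 times of 50 and 43 under the 4 alternatives run; centred on the median of tested loci averaging 1 FPKM or more (-0.015), they were 58 and 35. The median log2 ratio of the members, 0.0056, was 0.021 after that centring and between 0.0056 and 0.012 under the other 7 alternatives. The median of the large-subunit members was -0.0061, and -0.0019 over canonical members alone; that of the small-subunit members was 0.012 and 0.011. The share of summed FPKM, 15.6% in females and 15.3% in males, was 15.7% in females among tested loci. It was 16.8% and 16.4% among loci with a symbol, and 15.7% and 15.4% with all rows of a symbol summed. No paired analysis was possible because the table gives 1 value per sex, and leaving out each pool was not run for the same reason. Where levels are under 1 FPKM, depth limits the ratio, and copies close in sequence limit what a row can show.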
